A study of Mus musculus with 5 samples.

Results

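The collagen chain genes were taken as every named entry of the deposited gene table whose symbol reads Col, a number, the letter a and a number. The rule found 44 genes among 54113 named entries, and 34 of them were among the 16133 genes with enough reads to be tested. Col4a3bp, a lipid transfer protein with a collagen-like symbol, was left out by the rule. The libraries were RNA-seq of tissue labelled as tumour from C57BL/6 mice bearing MC38 colorectal tumours, a colon adenocarcinoma line of the same strain, that were kept for 2 weeks either at 30 °C (thermoneutral, 3 libraries) or at 4 °C (cold, 2 libraries). Both groups carried the same implanted line in mice of the same labelled strain, and housing temperature was the stated difference. The labels give no age. Libraries held 16191708 to 20320525 reads on named genes. Of these, 0.0749% to 0.199% fell on collagen chains, which is 12385 to 34110 reads. Levels are counts per 1000000 reads on named genes of a library (CPM), and fold changes are those of 4 °C over 30 °C from the edgeR fit after trimmed-mean (TMM) scaling.

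Collagens are the main structural proteins of the extracellular matrix. A chain is built of Gly-X-Y triplets, in which glycine, the smallest amino acid, fills the crowded core where 3 chains wind into a helix. Fibrillar chains make the tension-bearing rods of connective tissue, whereas basement membrane chains of type IV make a flexible sheet under epithelia and around vessels. Beaded filaments of type VI, fibril-associated chains, multiplexins, short-chain networks of type VIII and transmembrane chains complete the family. In tumours, collagens are mostly produced by stromal fibroblasts and perivascular cells, and in lymphoid organs by reticular cells.

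The repeat can be read in the coding sequences. The start of the longest uninterrupted Gly-X-Y run is shown for the most abundant fibrillar and basement membrane chains, and the end of that run for 1 chain of each class, from the GENCODE M21 transcript (build GRCm38) with the longest coding sequence. Each stretch is 24 codons, written 5′ to 3′ on the coding strand, with every glycine codon (GGN) in capitals.
Col1a1, start, codons 168 to 191: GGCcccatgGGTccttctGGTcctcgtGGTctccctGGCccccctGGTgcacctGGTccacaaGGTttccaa
Col1a2, start, codons 97 to 120: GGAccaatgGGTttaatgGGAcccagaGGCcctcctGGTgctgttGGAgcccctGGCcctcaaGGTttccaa
Col3a1, start, codons 164 to 187: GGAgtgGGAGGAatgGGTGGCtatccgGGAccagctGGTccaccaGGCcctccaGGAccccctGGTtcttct
Col4a1, start, codons 43 to 66: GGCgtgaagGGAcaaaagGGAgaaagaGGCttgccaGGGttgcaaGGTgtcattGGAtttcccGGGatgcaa
Col4a2, start, codons 777 to 800: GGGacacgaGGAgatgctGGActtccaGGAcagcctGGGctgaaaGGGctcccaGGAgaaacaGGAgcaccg
Col1a1, end, codons 1170 to 1193: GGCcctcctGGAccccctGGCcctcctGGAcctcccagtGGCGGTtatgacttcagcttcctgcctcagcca
Col4a1, end, codons 151 to 174: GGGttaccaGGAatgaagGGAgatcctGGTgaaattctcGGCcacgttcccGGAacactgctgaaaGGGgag
As the definition of a run requires, a glycine codon opened every triplet in the 5 starts and this spacing broke at both ends. The classes differed in how long a run lasted before it broke. Counting runs of at least 5 triplets, the 11 fibrillar chains held 2 to 3 runs each and a longest run of 216 to 344 triplets, with a median of 338. The 6 basement membrane chains held 22 to 27 runs with a longest run of 39 to 66 triplets. Glycine codons made up 21.3% to 28.3% of fibrillar codons and 27.5% to 28.6% of basement membrane codons, and codons inside the runs 53.5% to 77.2% and 75.2% to 79.5%. The beaded filament chains carried a short helix, with a longest run of 37 to 87 triplets and 9.07% to 15.3% glycine codons.

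**Figure D1:**
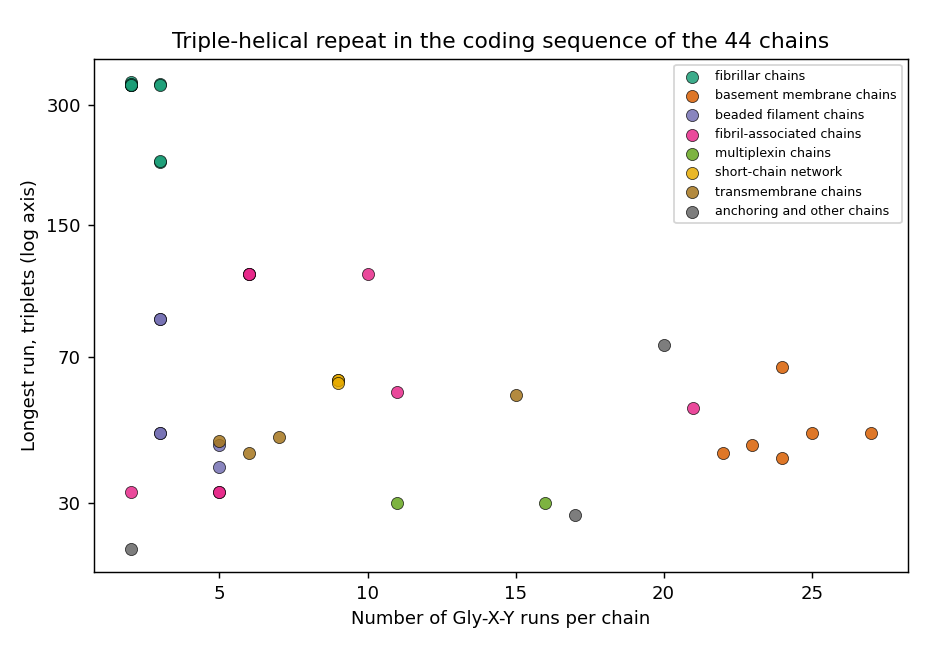
Each point is 1 of the 44 chains, placed by the number of Gly-X-Y runs of at least 5 triplets in its coding sequence (horizontal axis) and the length of its longest run in triplets (vertical log axis), coloured by class. Fibrillar chains sit at 2 to 3 runs and up to 344 triplets, and basement membrane chains at 22 to 27 runs and at most 66 triplets.

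The libraries went against their label in a way that touches every level given here. One library, 30 °C replicate 2, had 30.0% of its reads on 34 genes of pancreatic acinar cells, against 0.00242% to 0.305% in the others. Its CPM values were therefore diluted: 64.1% of all tested genes had their lowest CPM there, against 21.3% after TMM scaling. In every library the splenic mesenchyme markers Tlx1 (10.5 to 30.2 CPM), Nkx2-5 (2.90 to 9.08 CPM) and Nkx2-3 (10.6 to 27.3 CPM) were present, and 8 B cell markers summed to 4664 to 11834 CPM. The 10 epithelial and colon carcinoma markers summed to 41.6 to 132 CPM, and the intestinal genes Vil1 and Cdx2 were at or near 0 (highest 0.215 and 0.458 CPM). The part of this tissue mixture in the collagen values was not tested. Fewer cells of a type and less RNA per cell cannot be told apart in such bulk libraries.

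No collagen chain differed between 4 °C and 30 °C after correction. By edgeR's quasi-likelihood test, 0 of the 34 tested chains passed an adjusted p of 0.05, and 0% of all 16133 genes did (smallest adjusted p 0.71 among the chains and 0.69 among all genes). DESeq2's Wald test also called 0 chains, beside 118 of 16076 genes (0.734%). At an unadjusted edgeR p under 0.05 stood 1 chain, Col5a2, higher at 4 °C, where 2.58% of all genes were higher and 4.17% lower, so that 1 of 34 was near the background. Fold changes were positive for 24 chains and negative for 10, with a median log2 fold change of 0.18 against 0.01 over all genes tested. Over all genes tested, 8182 were positive and 7951 negative. Without 4 °C replicate 2, 16 chains were positive and 18 negative. The chains were measured less precisely than most genes: their median standard error was 0.49 on the log2 scale, against 0.28 over all genes. Between the lowest and the highest library the median chain varied 2.67-fold after TMM scaling, against 1.75-fold for the median gene, and 9 chains varied by more than 4-fold, as did 10.9% of all genes. With 3 libraries against 2, the smallest p an exact two-sided permutation test of a single value allows is 0.2.

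**Figure D2:**
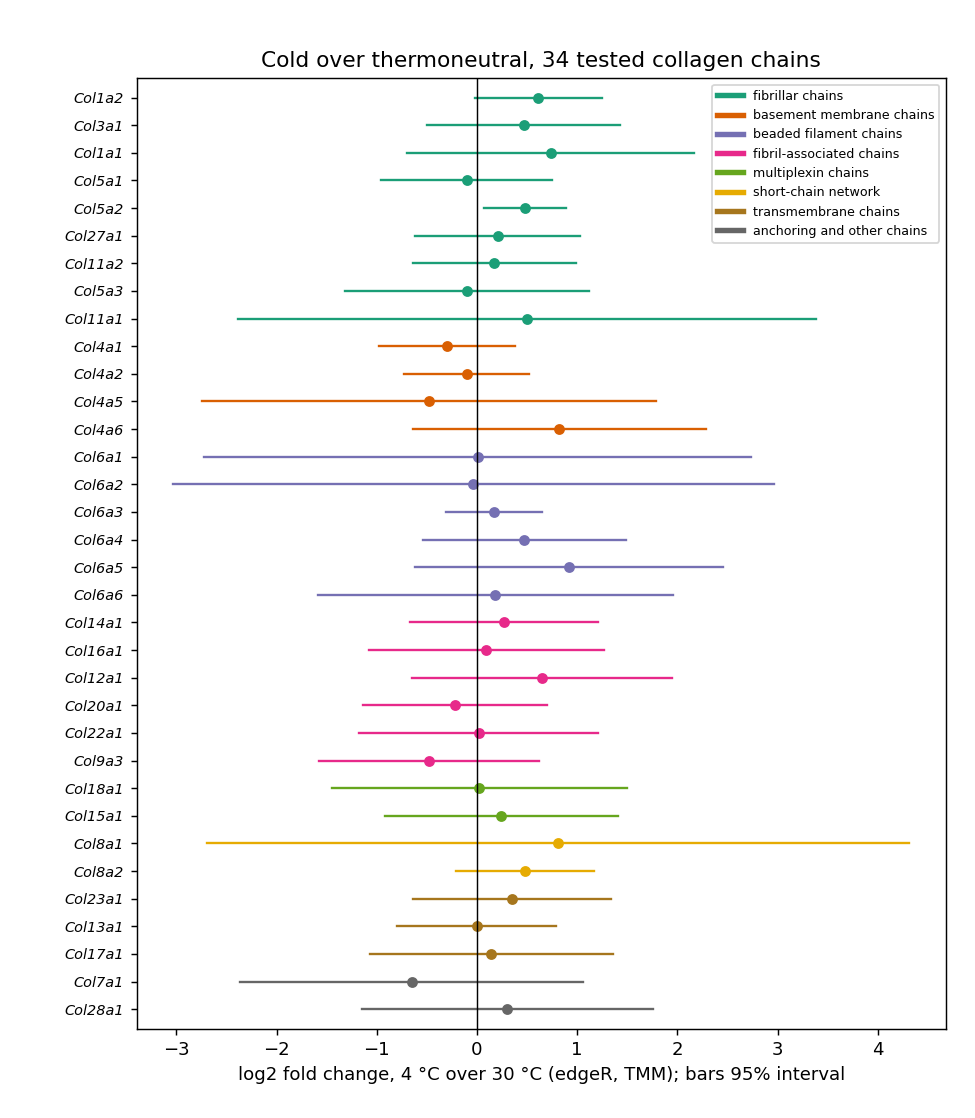
Points are the log2 fold changes of 4 °C over 30 °C of the 34 tested chains and bars their 95% intervals (edgeR, TMM scaling), coloured by class. The interval of Col5a2 (0.07 to 0.89) leaves out 0, that of Col1a2 (-0.02 to 1.25) just includes it, and those of Col8a1, Col6a1, Col6a2 and Col11a1 span more than 5 log2 units.

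Fibrillar chains were the most abundant class in 4 of the 5 libraries. Type I collagen, the heterotrimer of bone, tendon and most stroma, is encoded by Col1a1 (chromosome 11, 94936224 to 94953042, plus strand) and Col1a2 (chromosome 6, 4504814 to 4541544, plus strand). Col1a1 was at 173, 58.7 and 90.5 CPM in the 30 °C libraries and at 82.6 and 288 CPM in the 4 °C libraries. In CPM the 4 °C libraries were thus the second lowest and the highest of all, and the groups overlapped (107 ± 58.9 against 185 ± 145 CPM, SD, n = 3 and 2). After TMM scaling they were the lowest and the highest (76.5 and 280, against 161, 79.7 and 80.3 at 30 °C). The log2 fold change of Col1a1 was 0.74 (SE 0.59, edgeR adjusted p = 0.86), and its interval ran from -0.70 to 2.17. For Col1a2 the values were 196, 106 and 162 CPM at 30 °C and 191 and 312 CPM at 4 °C. Only 4 °C replicate 2 lay above all 30 °C libraries. Its log2 fold change was 0.61 (SE 0.26) with an unadjusted p of 0.056 by edgeR and 0.050 by DESeq2, and an edgeR adjusted p of 0.74.

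Col3a1, the chain of the homotrimeric type III collagen of reticular fibres, vessel walls and granulation tissue, lies on chromosome 1 (45311538 to 45349706, plus strand). It was at 232, 116 and 131 CPM at 30 °C and 149 and 323 CPM at 4 °C, again with 4 °C replicate 2 highest and the groups overlapping (log2 fold change 0.47, SE 0.40, edgeR adjusted p = 0.86). Col5a2, a chain of type V collagen that sits inside type I fibrils and sets their diameter, is its neighbour on chromosome 1 (45374321 to 45503282) on the opposite strand. Col5a2 was at 25.9, 17.8 and 25.1 CPM at 30 °C and at 33.6 and 35.6 CPM at 4 °C. It was the fibrillar chain whose groups did not overlap, in CPM and after TMM scaling (24.1, 24.1 and 22.3 against 31.1 and 34.6). Over all tested genes, 11.0% were higher at 4 °C without overlap in CPM. The log2 fold change of Col5a2 was 0.48 (SE 0.17, unadjusted p = 0.027, edgeR adjusted p = 0.71). When each library was left out in turn, Col5a2 had an unadjusted p under 0.05 only in the fit without 4 °C replicate 1.

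Its partner Col5a1 did not share this order. Col5a1 was at 54.9, 29.8 and 33.5 CPM at 30 °C and at 27.3 and 51.6 CPM at 4 °C, so that 4 °C libraries were the lowest and the second highest (log2 fold change -0.10, SE 0.36, edgeR adjusted p = 0.97). The ratio of Col5a1 to Col5a2 per kilobase of transcript ranged from 0.641 in 4 °C replicate 1 to 1.67 in 30 °C replicate 1. The third type V chain, Col5a3, was at 1.72 to 2.90 CPM (log2 fold change -0.10, SE 0.51, edgeR adjusted p = 0.98).

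The remaining fibrillar chains belong mostly to cartilage and were low. Col11a2, a type XI chain, was at 2.84 to 7.31 CPM (log2 fold change 0.17, SE 0.34), and Col27a1, a chain of growth plate cartilage, at 3.75 to 9.46 CPM (0.21, SE 0.34). Col11a1 had 10, 1 and 2 reads at 30 °C and 1 and 11 reads at 4 °C, so its 2 highest libraries came from different temperatures (log2 fold change 0.50, SE 1.20). The edgeR adjusted p of these chains was 0.93 to 0.95. Col2a1, the main chain of cartilage, had 0 to 2 reads per library and Col24a1 had 0 to 1, and neither was tested. In total, 7 of the 9 tested fibrillar chains had a positive log2 fold change, 1 with an unadjusted p under 0.05, and their median was 0.47 against 0.01 over all genes tested.

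Added together, the 11 fibrillar chains were at 698, 337 and 458 CPM at 30 °C and 502 and 1024 CPM at 4 °C. The group means were 498 ± 183 and 763 ± 369 CPM (SD, n = 3 and 2), a log2 ratio of 0.62. This ratio rested on 4 °C replicate 2: without it the log2 ratio was 0.01, the log2 fold change of Col1a1 was -0.50 and that of Col3a1 was -0.26, while those of Col5a2 and Col1a2 kept their sign. With the acinar genes removed before scaling the log2 ratio was 0.49.

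**Figure D3:**
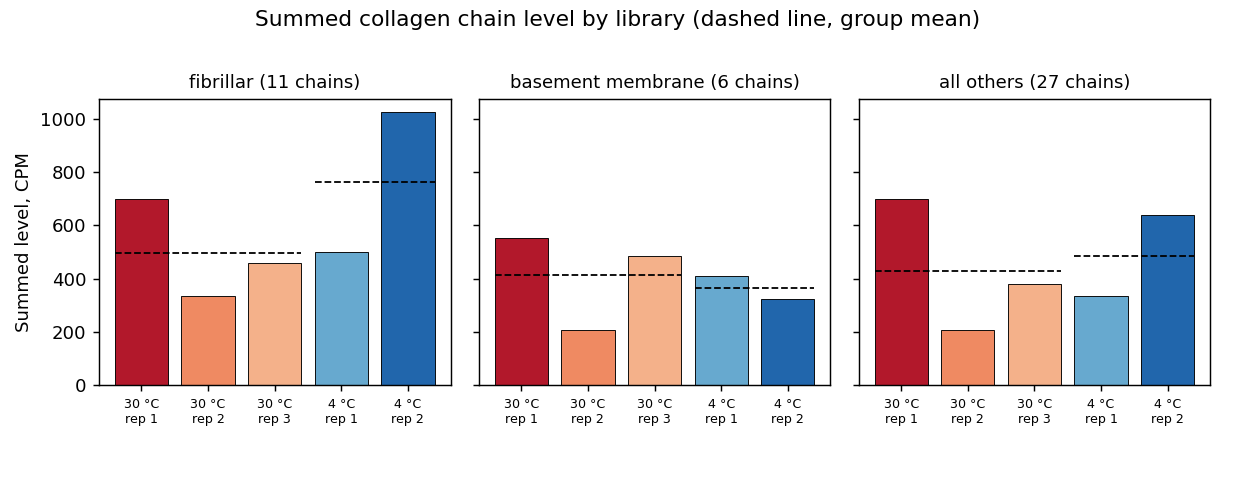
Bars are the summed CPM of the 11 fibrillar, the 6 basement membrane and the other 27 chains in each of the 5 libraries, and dashed lines the group means. The fibrillar sum is highest in 4 °C replicate 2 (1024 CPM) and the basement membrane sum in 30 °C replicate 1 (552 CPM). All 3 sums are lowest in 30 °C replicate 2, whose CPM values were diluted by acinar reads.

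The basement membrane chains Col4a1 and Col4a2 ordered the libraries in another way than the fibrillar sum. Type IV collagen of most basement membranes is a trimer of the products of Col4a1 and Col4a2, whose genes lie head to head on chromosome 8 (Col4a1 11198423 to 11312826 on the minus strand, Col4a2 11312805 to 11449287 on the plus strand) and overlap by 22 bases at their starts. Col4a1 was at 315, 117 and 280 CPM at 30 °C and at 225 and 176 CPM at 4 °C. Both 4 °C libraries lay inside the range of the 30 °C libraries. Its log2 fold change was -0.30 (SE 0.28, 95% interval -0.98 to 0.38, edgeR adjusted p = 0.87). Col4a2 was at 186, 82.5 and 186 CPM at 30 °C and 175 and 120 CPM at 4 °C, with the same overlap (log2 fold change -0.10, SE 0.26, interval -0.73 to 0.52, edgeR adjusted p = 0.95). The ratio of Col4a1 to Col4a2 per kilobase of transcript was 1.25 to 1.65 over the 5 libraries, a range of 1.32-fold.

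Col4a5 and Col4a6, chains of the type IV networks of smooth muscle and, for Col4a5, of kidney basement membranes, form a second head-to-head pair on chromosome X, with 1342 bases between their RefSeq start sites. They ordered the libraries differently. Col4a5 was at 50.2, 5.32 and 18.5 CPM at 30 °C and 7.68 and 27.6 CPM at 4 °C, a 9.44-fold range in CPM (log2 fold change -0.48, SE 0.91, edgeR adjusted p = 0.94). After TMM scaling Col4a5 was lowest in 4 °C replicate 1 (7.11), next to 30 °C replicate 2 (7.23). It was highest in 30 °C replicate 1 (46.7). Its ratio to Col4a1 per kilobase moved from 0.0346 in 4 °C replicate 1 to 0.161 in 30 °C replicate 1. Col4a6 had 12, 2 and 9 reads at 30 °C and 15 and 12 reads at 4 °C. In CPM its groups did not overlap, where 11.0% of all tested genes were higher at 4 °C without overlap. The 2 to 15 reads per library leave a wide interval (log2 fold change 0.82, SE 0.61, interval -0.64 to 2.28, edgeR adjusted p = 0.84). Col4a3 and Col4a4, chains of glomerular and lung basement membranes, had 2 to 5 and 5 to 6 reads and were not tested.

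The 6 type IV chains together were at 552, 206 and 485 CPM at 30 °C and at 409 and 325 CPM at 4 °C (414 ± 184 against 367 ± 59.5, SD), a log2 ratio of -0.17 that was smaller than the spread of the 30 °C libraries. Of the 4 tested, 1 had a positive and 3 a negative log2 fold change (median -0.20 against 0.01 over all genes tested), none with an unadjusted edgeR p under 0.05. The ratio of Col1a1 to Col4a1, 1 fibrillar against 1 basement membrane chain per kilobase of transcript, was 0.612, 0.558 and 0.361 at 30 °C and 0.410 and 1.83 at 4 °C, so that Col1a1 was above Col4a1 only in 4 °C replicate 2. For the other type I chain, Col1a2, the ratio to Col4a1 was 0.771, 1.11 and 0.718 at 30 °C and 1.05 and 2.19 at 4 °C, above 1 in 3 libraries of both temperatures.

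**Figure D4:**
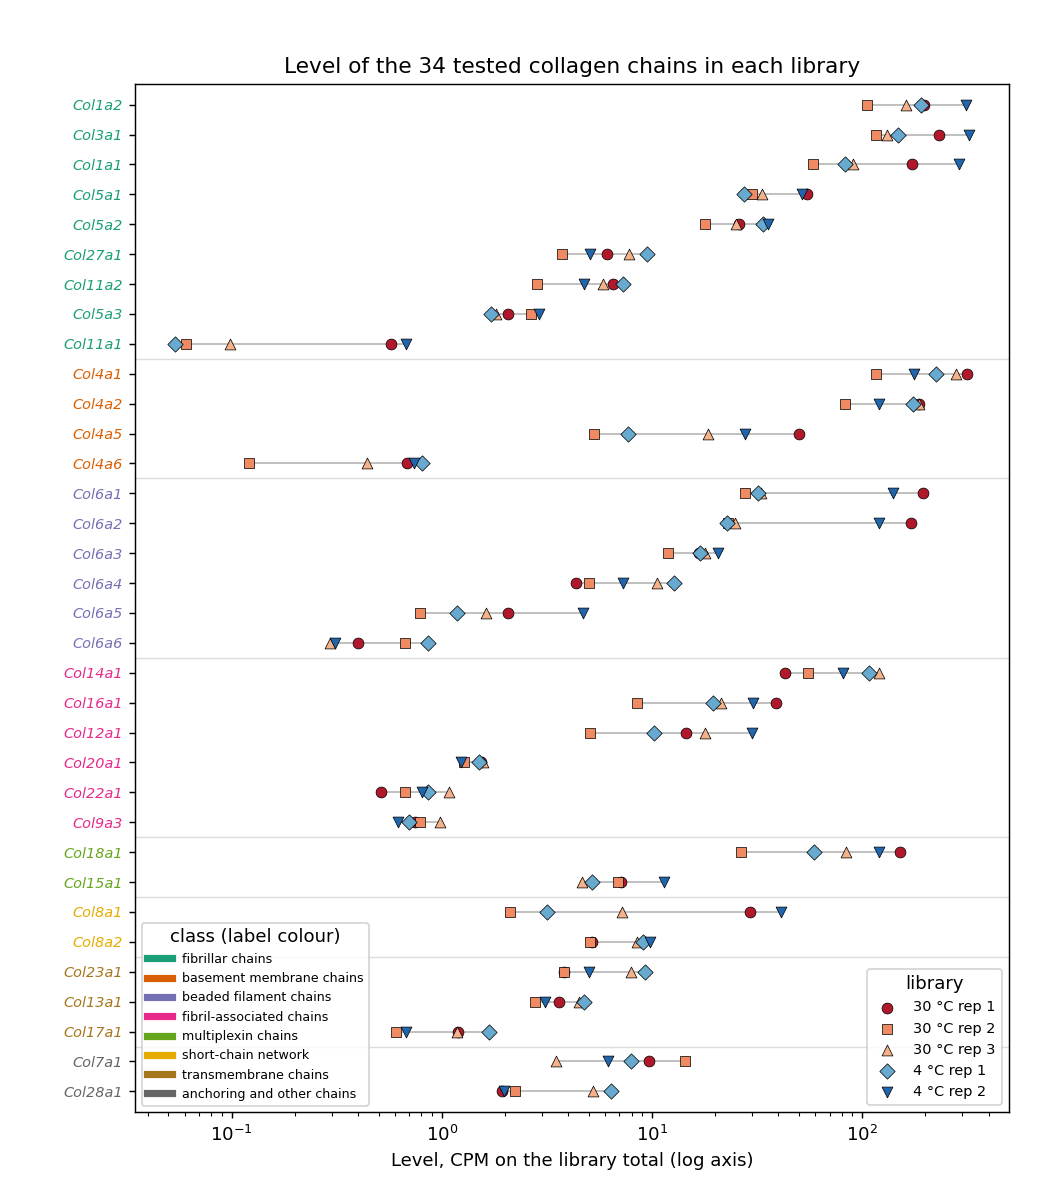
Each row is 1 of the 34 tested chains, grouped by class, and each point its level in 1 of the 5 libraries in CPM on a log axis. Levels run from under 1 CPM to over 300 CPM, and red (30 °C) and blue (4 °C) points interleave in most rows.

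Ranked by the median CPM per kilobase of transcript, Col1a2 (35.7), Col4a1 (34.0), Col4a2 (27.2), Col3a1 (26.8) and Col1a1 (15.3) were the most abundant chains, followed by Col18a1 (15.1) and Col14a1 (12.6). Per kilobase, Col1a2 spanned 19.7 to 58.4 and Col4a1 17.7 to 47.6 over the 5 libraries, and these neighbours changed places between libraries. Within a library, however, Col4a1 was above Col4a2, and Col6a1 above Col6a2, in 5 of 5.

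Among the beaded filament chains, Col6a1 and Col6a2 varied most. Type VI collagen forms the microfibrils around cells of muscle, fat and stroma from the products of Col6a1, Col6a2 and Col6a3. Col6a1 (chromosome 10, 76708792 to 76726168, minus strand) was at 195, 27.8 and 33.2 CPM at 30 °C and at 32.0 and 141 CPM at 4 °C. In each group a single library stood 4-fold or more above the others, 30 °C replicate 1 and 4 °C replicate 2. Col6a2, on the same strand (76595762 to 76623630), had the same order of the high libraries, at 170, 23.1 and 24.8 CPM at 30 °C and 22.8 and 120 CPM at 4 °C. Log2 fold changes of 0.01 (SE 1.06) and -0.04 (SE 1.15) therefore carried 95% intervals of -2.72 to 2.73 and -3.03 to 2.96, and no likeness of the temperatures can be read from them. Per kilobase of transcript the ratio of Col6a1 to Col6a2 was 1.11 to 1.35.

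Col6a3, the third chain of the same microfibril, lies on chromosome 1 and was nearly level at 16.8, 11.9 and 17.9 CPM at 30 °C and 16.9 and 20.7 CPM at 4 °C (log2 fold change 0.17, SE 0.20, interval -0.31 to 0.65). Its ratio to Col6a1 per kilobase accordingly ran from 0.0349 in 30 °C replicate 1 to 0.219 in 30 °C replicate 3, a 6.26-fold range. The other beaded filament chains, Col6a4, Col6a5 and Col6a6, were between 0.295 and 12.7 CPM. All 6 were tested, 5 with a positive and 1 with a negative log2 fold change, and their edgeR adjusted p values were 0.83 to 1.00.

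Type VIII collagen, a short-chain network of vessel walls and of the layer under the corneal endothelium, showed the widest range of the abundant chains. Col8a1 (chromosome 16, 57624258 to 57754737, minus strand) was at 29.4, 2.12 and 7.23 CPM at 30 °C and at 3.17 and 41.3 CPM at 4 °C. In CPM the highest library was 19.5-fold above the lowest, and high and low libraries occurred at both temperatures (log2 fold change 0.81, SE 1.35, edgeR adjusted p = 0.93). After TMM scaling Col8a1 ran from 2.87 in 30 °C replicate 2 and 2.93 in 4 °C replicate 1 to 40.1 in 4 °C replicate 2. Its partner Col8a2, named because its groups did not overlap, was at 5.20, 5.08 and 8.46 CPM at 30 °C and 9.03 and 9.82 CPM at 4 °C (log2 fold change 0.48, SE 0.29, unadjusted p = 0.14, edgeR adjusted p = 0.81). In CPM, 8.82% of the tested chains and 11.0% of all tested genes were higher at 4 °C without overlap. The ratio of Col8a1 to Col8a2 per kilobase of transcript ranged 16.1-fold, from 0.298 to 4.79. The type X chain Col10a1 of hypertrophic cartilage had 0 to 1 reads.

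The fibril-associated chains bind the surface of fibrils. Col14a1, a chain of mature fibrils in tendon and skin, was at 43.2, 55.3 and 120 CPM at 30 °C and at 108 and 81.4 CPM at 4 °C (log2 fold change 0.27, SE 0.39). Col12a1, its relative on fibrils under tension, was at 14.6, 5.08 and 17.9 CPM at 30 °C and at 10.2 and 29.8 CPM at 4 °C (log2 fold change 0.65, SE 0.54). These relatives ordered the libraries differently, since 30 °C replicate 3 was highest for Col14a1 and 4 °C replicate 2 for Col12a1. Col16a1 was at 39.1, 8.53 and 21.2 CPM at 30 °C and 19.6 and 30.3 CPM at 4 °C (log2 fold change 0.09, SE 0.49). The edgeR adjusted p of the 3 chains was 0.86 to 0.98. The others were low, and Col9a3, a type IX chain of cartilage that was the only chain lower at 4 °C without overlap in CPM (13, 13 and 20 reads against 13 and 10; 5.41% of all genes were lower without overlap), had a log2 fold change of -0.48 (SE 0.46). In addition, 6.07% of its exon bases are shared with Tcfl5 on the opposite strand.

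The multiplexin Col18a1, a vascular and epithelial basement membrane chain whose end fragment is endostatin, was at 151, 26.4 and 84.3 CPM at 30 °C and 58.9 and 120 CPM at 4 °C (log2 fold change 0.02, SE 0.60, interval -1.45 to 1.50, edgeR adjusted p = 0.99). Its order of libraries differed from that of Col4a1, since 4 °C replicate 2 was second highest for Col18a1 and second lowest for Col4a1. The multiplexin Col15a1, the transmembrane chains and the anchoring and other chains were at most 14.4 CPM, the highest value being that of Col7a1, the anchoring fibril chain under squamous epithelia, in 30 °C replicate 2, the library with acinar transcripts.

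Over the family, the spread followed libraries and crossed temperature. After the values were seen, the pair of libraries with the highest level was noted for each chain. By TMM-scaled CPM these were 30 °C replicate 1 and 4 °C replicate 2 for 12 of the 34 tested chains, against 20.0% of all genes tested, and by CPM for 13 (22.2% of all genes). The 12 chains were Col1a1, Col1a2, Col3a1, Col5a1, Col11a1, Col4a5, Col6a1, Col6a2, Col6a5, Col8a1, Col16a1 and Col18a1. Another 6 chains, among them Col14a1, were highest in 30 °C replicate 3 and 4 °C replicate 1 (20.2% of all genes), and 3 chains, Col5a2, Col8a2 and Col4a6, in the pair of 4 °C libraries (12.2% of all genes). These are descriptions, with no test, and the chains of one library share its tissue and depth. The summed level of all 44 chains was 1951 CPM in 30 °C replicate 1 and 1987 CPM in 4 °C replicate 2, against 749 to 1322 CPM in the other 3 libraries.

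**Figure D5:**
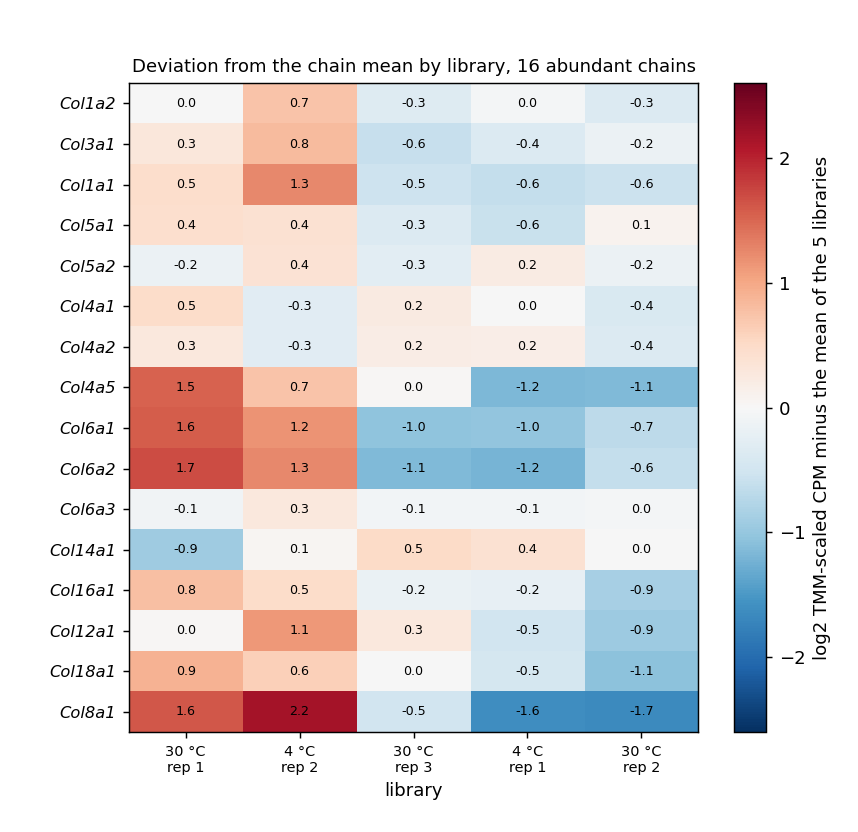
Colours and numbers give each library's log2 TMM-scaled CPM minus the mean of the 5 libraries, for the 16 chains with a mean of at least 10 CPM, with the libraries ordered by pattern and not by temperature. Col8a1, Col6a1, Col6a2 and Col4a5 are 0.74 to 2.15 above their mean in 30 °C replicate 1 and 4 °C replicate 2, while Col5a2 and Col6a3 stay within 0.37 of theirs in every library.

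Upstream sequence was available from RefSeq (GRCm38.p6) for 35 of the 44 chains. It is shown for 3 chains that were highest in 30 °C replicate 1 and 4 °C replicate 2 and whose window meets no annotated exon, as the 100 bases before the start site, 5′ to 3′ on the strand of the gene, with GC boxes (GGGCGG, or CCGCCC on the other strand) in capitals.
Col3a1, chr1:45311438-45311537, plus strand: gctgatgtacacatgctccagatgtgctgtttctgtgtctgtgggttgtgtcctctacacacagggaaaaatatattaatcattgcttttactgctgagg
Col5a1, chr2:27886325-27886424, plus strand: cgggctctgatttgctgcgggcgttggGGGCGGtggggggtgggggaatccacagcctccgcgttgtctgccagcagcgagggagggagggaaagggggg
Col8a1, chr16:57754738-57754837, minus strand: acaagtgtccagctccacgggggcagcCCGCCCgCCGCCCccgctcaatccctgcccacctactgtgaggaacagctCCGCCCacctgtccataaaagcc
These windows held 0, 1 and 3 GC boxes. Of the other chains highest in this pair, Col11a1 and Col6a5 had exon-free windows with 1 GC box each. Col6a2 had an exon-free window without a GC box. These were not shown. In the 250 bases upstream, searched on both strands, a GC box occurred in 21 of the 35 chains (60.0%) and in 32.7% of 32851 promoters. For each motif a chain counted if any of its promoters held a match, whereas the second share counts promoters singly, so the units differ. CCAAT occurred in 13 chains (37.1% against 33.8%), TATAAA in 5 (14.3% against 12.4%) and the AP-1 motif TGANTCA in 1, Col6a1 (2.86% against 6.75%). A match is a description of the letters and not a bound site.

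Genes that act on the chains were read from lists chosen with earlier results known. Of 26 genes for folding and processing in the endoplasmic reticulum and after secretion, 15 had a positive and 11 a negative log2 fold change (median 0.01, as over all genes tested), and 0 passed correction. With an unadjusted p under 0.05 stood 1, Serpinh1 (2.58% of all genes were higher). Serpinh1, the collagen-specific chaperone HSP47, was at 121, 50.0 and 88.0 CPM at 30 °C and 124 and 174 CPM at 4 °C. Its 4 °C libraries were the highest and the groups did not overlap, as for 11.0% of all tested genes in CPM. Its log2 fold change was 0.72 (SE 0.28, unadjusted p = 0.041, edgeR adjusted p = 0.72). P4hb, the shared subunit of the prolyl hydroxylases and a general disulphide isomerase, was highest in 30 °C replicate 2 (747 CPM), the library with acinar transcripts, against 356 to 637 CPM elsewhere (log2 fold change -0.69, SE 0.47). Adamts3, which cleaves procollagen ends, was at 0.618 to 2.76 CPM (log2 fold change -0.88, SE 0.54).

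Of 7 cross-linking genes, 4 had a positive and 3 a negative log2 fold change (median 0.11). The lysyl oxidases Loxl2 (0.44, SE 0.37) and Loxl3 (0.57, SE 0.56) and the transglutaminase Tgm2 (-0.59, SE 0.61) had the smallest p values, all with an edgeR adjusted p of 0.86 or more. Tgm2 was at 465 CPM in 30 °C replicate 1 and at 74.6 to 193 CPM in the others, so that its level was set apart by 1 library.

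Among 12 tested genes of collagen degradation, 6 had a positive and 6 a negative log2 fold change (median -0.04), and 2 were lower with an unadjusted p under 0.05, where 4.17% of all genes were. Mmp8, the neutrophil collagenase, was at 166, 52.2 and 47.7 CPM at 30 °C and 22.8 and 31.6 CPM at 4 °C, and Mmp9, a gelatinase of neutrophils and macrophages, at 308, 90.9 and 117 against 53.5 and 84.0 CPM. Both were lower in each 4 °C library than in any 30 °C library, as were 5.41% of all tested genes in CPM. In both, 30 °C replicate 1 stood above the rest. Their log2 fold changes were -1.79 (SE 0.57, unadjusted p = 0.020) and -1.39 (SE 0.50, unadjusted p = 0.032), with edgeR adjusted p of 0.69 and 0.71. Ctsk, a lysosomal collagenase, had a log2 fold change of 0.76 (SE 0.33, edgeR adjusted p = 0.75).

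The 9 collagen receptors gave 5 positive and 4 negative log2 fold changes (median 0.02), with Ddr1, a receptor kinase for collagen, at 0.32 (SE 0.20), Itga2 at -0.50 (SE 0.35) and Itga11 at 0.55 (SE 0.49), and edgeR adjusted p of 0.82 to 0.87. Of 16 basement membrane partners 9 were positive and 7 negative (median 0.07). Agrn, a heparan sulphate proteoglycan, was at -0.44 (SE 0.24), Sparc, a collagen-binding glycoprotein, at 0.44 (SE 0.35) and the laminin linker Nid2 at -0.47 (SE 0.51). None of these lists had a member with an unadjusted p under 0.05.

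Of 15 fibrillar matrix partners, 8 had a positive and 7 a negative log2 fold change (median 0.06). Vcan, the large proteoglycan versican, was at 41.2, 13.7 and 5.51 CPM at 30 °C and 5.16 and 3.21 CPM at 4 °C. The groups did not overlap, although 30 °C replicate 3 was close to 4 °C replicate 1 (log2 fold change -2.38, SE 0.86, unadjusted p = 0.034, edgeR adjusted p = 0.71). Over all tested genes, 5.41% were lower at 4 °C without overlap in CPM. Postn, a matricellular protein of collagen fibrils, was at 8.06, 10.7 and 15.3 against 20.1 and 19.5 CPM (0.66, SE 0.31, edgeR adjusted p = 0.76), and Tnc, tenascin C, reached 16.9 CPM in 4 °C replicate 2 against 2.78 to 5.95 CPM elsewhere (1.28, SE 0.67). For TGF-β, a major inducer of collagen genes, 9 of 10 ligands, receptors and Smads had a positive log2 fold change (median 0.20), with the smallest p values for Tgfb1 (0.22, SE 0.17), Tgfb2 (0.41, SE 0.37) and Smad4 (0.24, SE 0.23), none with an unadjusted p under 0.05.

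Markers of cells that can make collagen are given beside these values. The 10 fibroblast and reticular cell markers summed to 561, 306 and 464 CPM at 30 °C and 727 and 600 CPM at 4 °C, with 7 positive and 3 negative log2 fold changes (median 0.22) and 3 of 10 higher with an unadjusted p under 0.05, Thy1, Cdh11 and Cxcl12, where 2.58% of all genes were. All 8 smooth muscle markers had a positive log2 fold change (median 1.17), 5 of 8 with an unadjusted p under 0.05 (2.58% of all genes), and their sum was 257, 155 and 321 CPM at 30 °C and 536 and 480 CPM at 4 °C. At an adjusted p under 0.05, DESeq2 called 4 of them, Acta2, Tagln, Des and Cnn1, and of the fibroblast and reticular cell markers 1, Thy1 (DESeq2 adjusted p = 0.049), where it called 0.734% of all genes. EdgeR called none of either list. Thy1 is also a marker of mouse T cells, and which cells gave its reads was not tested. The 5 splenic mesenchyme markers summed to 71.8, 44.1 and 94.1 CPM at 30 °C and 118 and 124 CPM at 4 °C, and the 9 endothelial markers to 463 to 930 CPM in groups that overlapped. Single genes of these lists followed different libraries. By TMM-scaled CPM, 30 °C replicate 1 and 4 °C replicate 2, the libraries with the highest fibrillar sums, were the highest pair for 2 of the 10 fibroblast and reticular cell markers, the PDGF receptors Pdgfra (82.2, 16.0 and 36.7 CPM at 30 °C, 35.9 and 37.1 at 4 °C) and Pdgfrb (91.9, 20.4 and 49.1 against 59.2 and 77.8), and for 0 of the smooth muscle, splenic mesenchyme and endothelial markers, against 20.0% of all genes. They were the highest pair for 11 of the 15 fibrillar matrix partners, among them the fibril-binding proteoglycans Dcn and Lum and the glycoproteins Fn1 and Fbln1. The same held for 13 of 26 genes of folding and processing and for 5 of 7 of cross-linking. In the other lists of genes that act on the chains it held for fewer: 5 of 12 of degradation, 5 of 16 basement membrane partners, 3 of 9 receptors and 1 of 10 TGF-β genes. The part of these cells and genes in the collagen values was not tested.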

How the data were processed

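Total RNA of 5 libraries (30 °C, n = 3; 4 °C, n = 2) was sequenced on an Illumina instrument after a TruSeq preparation. The authors deposited a table of raw read counts per gene. Their methods name featureCounts with Gencode vM19, and the submitters' processing notes name fastp, HISAT, RSEM and GRCm38 without roles. The strand setting and the handling of reads with several positions were not given in the sources used here. The 333 unnamed entries (0.01014% to 0.01697% of counts) were left out. Where 1 symbol stood for several entries (97 symbols), the most highly counted entry was used under that name.

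Levels are CPM on the named-gene total, and 3 counts, the limit a count of 0 allows, correspond to 0.148 to 0.185 CPM (counting error only). Tests used edgeR 4.0.16 in R 4.3.3 (filterByExpr, TMM, robust glmQLFit, glmQLFTest, two-sided, Benjamini-Hochberg over all 16133 genes), first tested on simulated data. Standard errors are the log2 fold change divided by the square root of F, and 95% intervals use the t distribution with the fit's degrees of freedom. DESeq2 1.42.0 (Wald), other scalings, filters, no robust estimation, a replicate block, removal of acinar genes and leaving out each replicate were alternatives. Libraries were grouped by their titles. P-values measure only the spread between these libraries. The named genes were the tested fibrillar and basement membrane chains, other chains with a mean of at least 10 CPM or an unadjusted p under 0.05, and the 3 genes of smallest p in each pathway list. Other genes given in the text, among them Col8a2, Col9a3 and Col7a1, fell outside this rule. These 3 chains were picked for their values and are not among the 42 genes followed under the alternatives. Members and lists were chosen with earlier results of these data known. Further lists gave sums of 1064 to 2340 CPM for red pulp macrophage markers and 10928 to 28129 CPM for erythroblast markers. Lengths, coordinates and coding sequences came from GENCODE M21 (GRCm38) transcripts, and promoters from RefSeq.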

Additional observations from a re-analysis of the deposited data

How the results depend on the processing

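The count of chains with an adjusted p under 0.05 stayed 0 under all alternatives. With an unadjusted p under 0.05 stood 1 chain, against 2 (Col5a2 and Col1a2) by DESeq2, with upper-quartile scaling and with no filter, and 0 with the replicate block. Leaving out single replicates gave 0 to 6, the 6 (Col1a1, Col1a2, Col3a1, Col5a2, Col6a5 and Col12a1) without 4 °C replicate 1, 0 without 4 °C replicate 2 or without 30 °C replicate 2, and another chain than Col5a2 in the remaining fits (Col1a2 without 30 °C replicate 1, Col7a1 without 30 °C replicate 3). In those fits a lone 4 °C library was assumed to vary like the 30 °C libraries. Over all genes, 0 were called by edgeR, 118 by DESeq2 and 44 with the replicate block. Upper-quartile scaling moved the median of all genes to 0.06 and the split of the chains from 24 higher and 10 lower to 26 and 8, and without 4 °C replicate 2 it was 16 and 18. Over genes, the correlation of deviations from the group mean was -0.27 for replicates 1 and 0.25 for replicates 2. With 2 libraries at 4 °C their deviations mirror each other, so these values cannot decide whether the replicate numbers pair the libraries. The block left Col5a2 at 0.44.

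The fibrillar log2 ratio was 0.49 to 0.59 under other scalings and 0.01 to 1.04 when single replicates were left out, the lowest without 4 °C replicate 2. The basement membrane ratio was -0.27 to -0.19 and -0.50 to 0.09.

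Of 540 alternative log2 fold changes of 42 named genes, 498 kept their sign and side of the threshold, 41 changed sign and 1 passed the threshold (Vcan, -2.79 with the replicate block, edgeR adjusted p = 0.0049). Col5a2, Col1a2, Col4a1 and Col4a6 kept their sign throughout. Apart from leaving out replicates, the sign changed for Col6a1 (0.00 to -0.01 by DESeq2, RLE scaling, the filter of 10 counts in every library and removal of acinar genes, and -0.38 with the replicate block), Col6a2 (0.03 with upper-quartile scaling) and Col11a1 (-0.18 with the block). Leaving out single replicates gave ranges through 0 for Col1a1 (-0.50 to 1.39), Col3a1 (-0.26 to 0.94), Col5a1 (-0.69 to 0.31), Col5a3 (-0.59 to 0.30), Col11a2 (-0.13 to 0.41), Col27a1 (-0.27 to 0.55), Col4a2 (-0.36 to 0.10), Col4a5 (-1.74 to 0.51), Col6a1 (-1.50 to 1.31), Col6a2 (-1.76 to 1.37), Col6a3 (-0.03 to 0.34), Col8a1 (-2.07 to 2.18), Col12a1 (-0.38 to 1.25), Col14a1 (-0.03 to 0.63), Col16a1 (-0.31 to 0.64), Col18a1 (-0.64 to 0.62), Loxl2 (-0.01 to 0.78), Loxl3 (-0.39 to 1.14), Tgm2 (-0.97 to 0.19), Sparc (-0.02 to 0.79), Nid2 (-0.78 to 0.16), Tnc (-0.35 to 2.03) and Smad4 (-0.01 to 0.43). The cause was not tested. Few reads were counted for the tested chains Col4a6, Col6a6, Col9a3 and Col11a1, at most 20 in any library.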
